A study of Arabidopsis thaliana with 27 samples.

Results

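The tau and phi glutathione transferase genes of Arabidopsis thaliana were followed in developing seeds by RNA sequencing. They are 41 of the 33602 genes counted in each library, 28 of the tau class (GSTU1 to GSTU28) and 13 of the phi class (GSTF2 to GSTF14). All genes with these family names were taken, whatever their values, but the 2 families were picked for description with earlier results of these data known. Every name matched a symbol or synonym in the RefSeq annotation. Seeds came from 3 lines that all carry the fae1 mutation, which removes the seed's fatty acid elongase for very long chains. CL37 carries in addition the castor bean hydroxylase RcFAH12, expressed in seeds, which makes hydroxy fatty acids. The PDAT line is CL37 with a further castor bean gene expressed in seeds, the acyltransferase RcPDAT1a. The fae1 line carries neither transgene and is the reference for both. Samples of each line were taken 7-8, 9-10 and 11-12 days after flowering from plants in constant light, as 3 biological replicates lettered A to C, and the seeds were removed from frozen siliques of about 50 plants. CL37 and PDAT are each 1 transgenic line, so an effect of the transgene and one of the line cannot be told apart.

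Glutathione transferases join the tripeptide glutathione to reactive, electrophilic molecules, and vacuolar pumps then remove the conjugates. The tau and phi classes are the large plant classes, built up by tandem duplication, and many of their genes are known to respond to xenobiotics, oxidised lipids and stress hormones. Some members have other roles: GSTF12 (TT19) carries flavonoids on the way to anthocyanins and proanthocyanidins, GSTF6 acts in camalexin synthesis, GSTF9, GSTF11, GSTU13 and GSTU20 have been tied to glucosinolate synthesis, and GSTU24 and GSTU25 act on the explosive TNT.

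Most of the genes lie in tandem clusters. The largest holds GSTU1 to GSTU7 on chromosome 2, and another holds GSTU19 to GSTU23 on chromosome 1. Encoded tau proteins of the same cluster share a median of 66.2% of aligned residues over 38 pairs (49.1% to 81.7%), and all other pairs of tau proteins a median of 40.4%. The pairs GSTF6/GSTF7 and GSTF2/GSTF3 are closer, with 93.8% and 92.5% identical residues and 93.6% and 94.0% identical mRNA bases. Reads from those 4 genes could have been discarded as not unique or placed on the other copy, so their values are uncertain. How strand was used in counting is not given in the sources used here, and the library kit does not mark strand. Genes of the other strand overlap GSTU2, GSTU6, GSTU7, GSTU10, GSTF2, GSTF4, GSTF10, GSTF11 and GSTF12, and the same-strand genes GSTU17 and GSTU18 overlap each other. A same-strand gene also overlaps GSTU10, and another, AT2G47720, lies inside GSTF8 and had 0 counts in all 9 libraries of 11-12 days. How reads in these shared stretches were assigned was not tested.

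The 250 bases upstream of the annotated start were read from the RefSeq genome TAIR10.1 and searched for TGACG on both strands (CGTCA on the other strand), the core that TGA transcription factors are known to bind, which occurs upstream of several plant glutathione transferase genes. It was present in 11 of 28 tau windows (39.3%) and 3 of 13 phi windows (23.1%), and in 5098 of the 27443 windows of all protein-coding genes (18.6%). A G-box, CACGTG, stood in 7.1% of tau, 7.7% of phi and 6.5% of all windows. The windows below are printed 5′ to 3′ on the gene's strand, with TGACG or CGTCA in capitals. The first 5 belong to genes that were higher in CL37 than in fae1 seeds at 11-12 days. The last 2, GSTU19 and its neighbour GSTU20, hold no match, and only GSTU19 of these passed the same test.
GSTU7, chr2:12618900-12619149, minus strand: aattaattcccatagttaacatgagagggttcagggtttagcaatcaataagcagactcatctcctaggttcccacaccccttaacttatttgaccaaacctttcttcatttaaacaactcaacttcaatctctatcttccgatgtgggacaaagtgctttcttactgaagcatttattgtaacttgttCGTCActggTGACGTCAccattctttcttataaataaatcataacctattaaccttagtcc
GSTU1, chr2:12632539-12632788, minus strand: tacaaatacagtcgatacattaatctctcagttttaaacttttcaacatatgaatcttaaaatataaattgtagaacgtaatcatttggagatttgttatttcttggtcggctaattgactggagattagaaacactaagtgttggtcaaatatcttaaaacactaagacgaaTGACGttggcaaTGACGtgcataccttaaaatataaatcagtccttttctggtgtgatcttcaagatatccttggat
GSTU9, chr5:25089627-25089876, minus strand: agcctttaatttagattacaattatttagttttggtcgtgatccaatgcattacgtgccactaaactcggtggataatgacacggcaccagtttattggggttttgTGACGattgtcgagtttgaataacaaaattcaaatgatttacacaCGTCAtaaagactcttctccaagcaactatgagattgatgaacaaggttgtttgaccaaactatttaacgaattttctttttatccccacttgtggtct
GSTU22, chr1:29474004-29474253, minus strand: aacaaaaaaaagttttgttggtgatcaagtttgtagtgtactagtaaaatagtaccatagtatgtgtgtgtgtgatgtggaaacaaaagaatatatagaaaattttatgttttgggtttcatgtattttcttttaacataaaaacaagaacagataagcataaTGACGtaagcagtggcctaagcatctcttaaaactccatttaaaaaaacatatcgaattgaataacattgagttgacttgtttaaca
GSTU25, chr1:5871774-5872023, plus strand: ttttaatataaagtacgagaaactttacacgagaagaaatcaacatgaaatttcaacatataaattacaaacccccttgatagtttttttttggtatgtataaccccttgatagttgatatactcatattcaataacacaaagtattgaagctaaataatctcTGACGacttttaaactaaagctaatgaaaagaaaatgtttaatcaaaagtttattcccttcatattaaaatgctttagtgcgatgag
GSTU19, chr1:29488008-29488257, minus strand: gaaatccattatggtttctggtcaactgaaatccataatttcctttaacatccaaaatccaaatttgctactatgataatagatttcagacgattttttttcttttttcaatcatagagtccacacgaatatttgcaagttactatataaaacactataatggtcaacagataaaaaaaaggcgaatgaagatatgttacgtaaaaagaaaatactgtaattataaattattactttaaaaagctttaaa
GSTU20, chr1:29485390-29485639, minus strand: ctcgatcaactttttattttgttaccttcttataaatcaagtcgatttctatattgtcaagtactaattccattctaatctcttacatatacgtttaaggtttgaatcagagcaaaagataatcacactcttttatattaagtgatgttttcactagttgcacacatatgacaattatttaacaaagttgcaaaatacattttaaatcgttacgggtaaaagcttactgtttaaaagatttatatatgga
The GSTU7 window holds 3 matches, with first bases 61, 52 and 49 bases before the start, of which the last 2 overlap, and part of another annotated gene lies in that window. GSTU1 has 2 matches at 77 and 65 bases, and GSTU9 has 2 at 144 and 99 bases. GSTU22 and GSTU25, which lie in different clusters, each have 1 match at 87 bases. A match describes the letters of the window and is not evidence of binding.

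The counts behind these values ran from 4126510 to 22403287 per library. The label of seeds was checked against markers, in CPM (a read count relative to the TMM-scaled size of its library). At 11-12 days 5 embryo and seed genes summed to 86347 to 162521 CPM in CL37, 103462 to 113843 CPM in PDAT and 158044 to 248399 CPM in fae1. At that stage 7 silique wall genes summed to 52.5 to 85.4 CPM in CL37, 52.1 to 71.0 CPM in PDAT and 63.0 to 67.1 CPM in fae1. Of these, CRC and IND were at 0 in every library of that stage, and the others were counted in each line. At 7-8 days the 7 genes summed to 38.1 to 50.2 CPM in CL37, 35.0 to 45.8 CPM in PDAT and 48.6 to 61.5 CPM in fae1. The part of silique wall RNA in the samples was not tested. Library A of fae1 at 7-8 days stands apart: the storage protein gene CRU3 had 97700.2 CPM there, against 2956 and 7482 CPM in B and C, and the embryo regulator LEC1 had 14.0, against 77.5 and 60.7 CPM. Library A of fae1 at 9-10 days had 62.8 CPM of LEC1, against 17.7 and 15.1 CPM. Sums over the 5 embryo and seed genes follow the most abundant of them, so LEC1 at these levels has little weight. In these bulk samples, fewer cells of a type and less RNA per cell cannot be told apart.

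Tested were the 33 members that passed the expression filter, among 18897 genes in one edgeR quasi-likelihood fit over the 27 libraries, with Benjamini-Hochberg adjustment over all of them. A gene is called, and is said to have risen or fallen, at an adjusted p below 0.05. GSTU11 and GSTF7 passed the filter only through the CL37 libraries of 11-12 days, so a difference there was built into their selection. The 8 members that did not pass are GSTU2, GSTU3, GSTU12, GSTU14, GSTU21, GSTU28, GSTF4 and GSTF11. GSTF4 had 0 counts in all 27 libraries, which allows up to 3 counts per library, or 0.151 to 0.773 CPM.

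At 7-8 and 9-10 days a single gene led the family. By CPM per kilobase of exon, GSTU20 was then the most abundant member in each line, with 49.0% to 54.7% of the summed level of the 41 genes, and GSTU19 came next with 15.5% to 21.8%. GSTU5, GSTU16 and GSTU17 followed at 2.5% to 7.5% each. At 11-12 days the order changed by line. In CL37 seeds GSTU19 came first with 1041 CPM per kilobase (43.4%), then GSTU5 with 318, GSTU20 with 258 and GSTU24 with 161. In PDAT seeds GSTU19 (297), GSTU20 (284) and GSTU5 (230) lay close together, with overlapping libraries for GSTU19 and GSTU20. In fae1 seeds GSTU20 came first with 292, then GSTU19 with 206, GSTU5 with 104 and GSTU16 with 91.7. Summed over the 28 tau genes, the 11-12-day libraries held 2388 to 2888 CPM in CL37, 1079 to 1548 CPM in PDAT and 931 to 1001 CPM in fae1. The 13 phi genes summed to 238 to 313 CPM in CL37, 76.0 to 92.5 CPM in PDAT and 76.4 to 101 CPM in fae1.

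The first comparison set CL37 against fae1, lines that differ in the hydroxylase transgene. At 7-8 days no member was called by edgeR (3 had an unadjusted p below 0.05, and DESeq2 called none), where 0.0265% of all genes were called. At 9-10 days GSTU22 and GSTU25 rose, where 0.741% of all genes were called, 0.704% as higher and 0.0370% as lower. Both calls are lost on leaving out library A or B of either line, and that of GSTU25 also without library C of fae1. GSTU22 had 6.82, 12.6 and 0.837 CPM in CL37, against 0.330, 0.467 and 0.931 CPM in fae1, with library C of CL37 inside the fae1 range. GSTU25 had 4.46, 4.90 and 0.209 CPM in CL37, against 0.528, 0.280 and 0.103 CPM in fae1, and the same library was low.

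At 11-12 days 16 of the 33 tested members rose in CL37 seeds and none fell, where 15.6% of all genes were called, 10.5% as higher and 5.04% as lower. Of the 22 tested tau genes 11 rose, and of the 11 tested phi genes 5. The median log2 fold change was 1.18 over the tested members and -0.02 over all tested genes. Without GSTU11 and GSTF7, which their filter selected, 14 of 31 rose and the median was 0.76. The other 17 tested members were called in no contrast between lines at any stage.

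**Figure D1:**
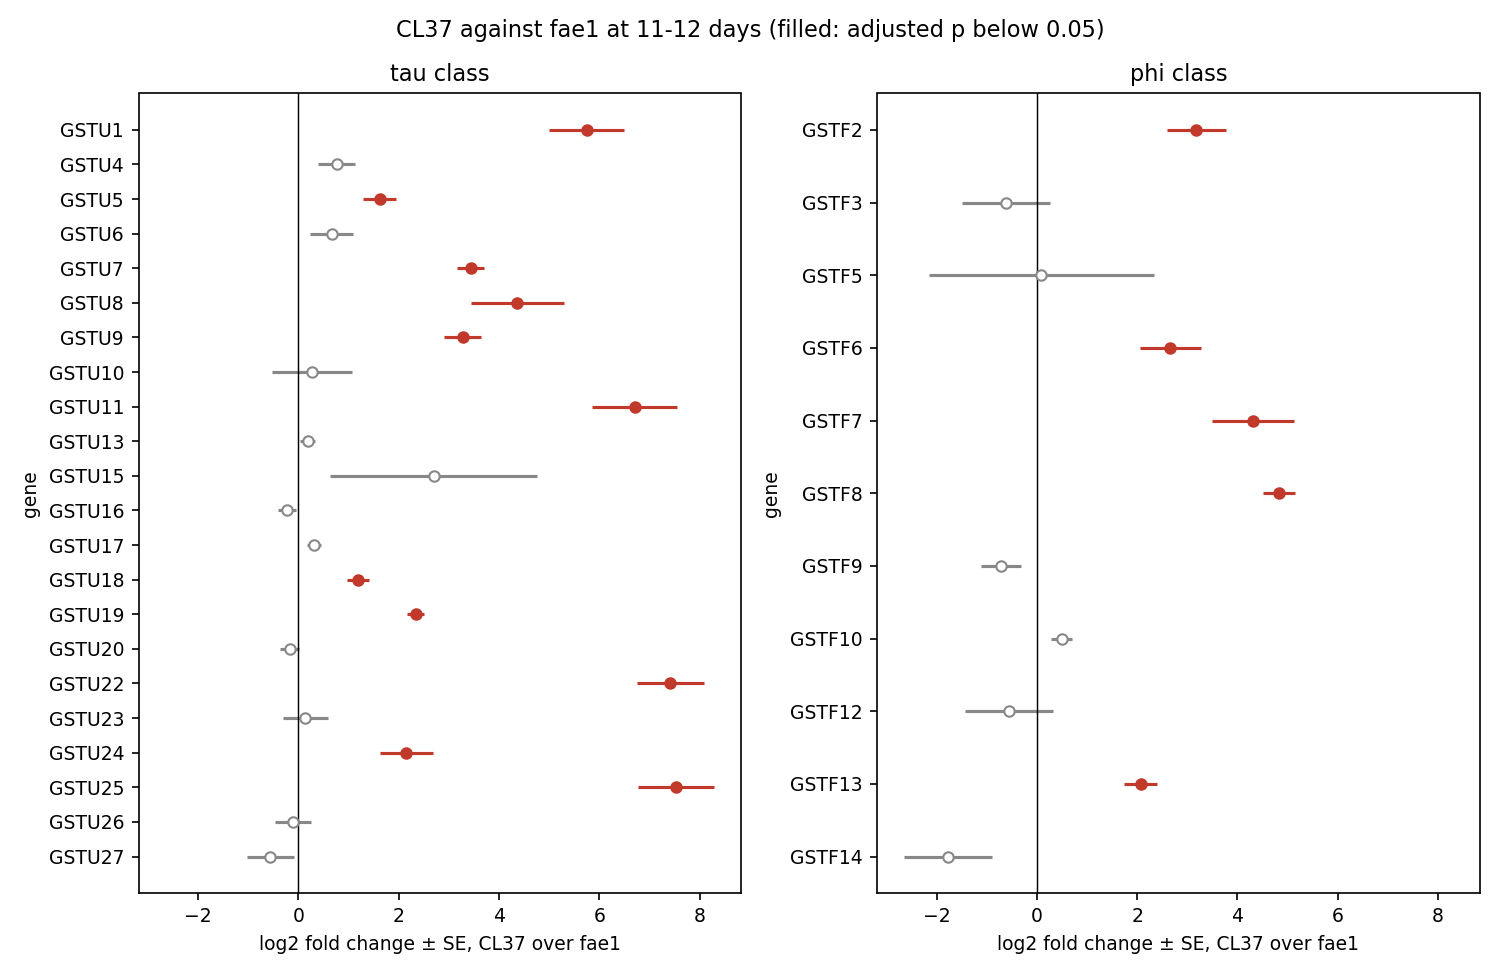
Log2 fold change of CL37 over fae1 at 11-12 days (horizontal axis, with SE) for each tested tau gene (left) and phi gene (right). Filled red points are the 16 members with an adjusted p below 0.05, all to the right of 0. GSTU20 lies at -0.18, close to 0, beside GSTU19 at 2.34.

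GSTU19 (AT1G78380), the abundant tau enzyme named above, had 1284, 1186 and 1029 CPM in CL37, against 222, 234 and 237 CPM in fae1. The CL37 libraries lie far above those of fae1, with no overlap, and the log2 fold change was 2.34 ± 0.17 (SE, adjusted p = 1.34e-09, edgeR). Its tandem neighbour GSTU20 (AT1G78370), with 74.2% identical residues, had 259, 293 and 334 CPM in CL37, against 339, 363 and 301 CPM in fae1. Here the groups overlap and the log2 fold change was -0.18 ± 0.19 (adjusted p = 0.567).

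GSTU22 (AT1G78340), another gene of that cluster, was nearly silent in fae1 seeds at this stage. It had 106, 63.3 and 75.5 CPM in CL37, against 0.739, 0.402 and 0.301 CPM in fae1 (log2 fold change 7.41 ± 0.67, adjusted p = 4.33e-08). The fae1 values rest on 8, 5 and 4 counts. GSTU23 in the same cluster had a log2 fold change of 0.14 ± 0.45 and was not called, and GSTU21 was too low to be tested. The GSTU23 value rests on 4, 19 and 13 counts in CL37 and 12, 7 and 15 in fae1, so its missing call says little. So GSTU19 and GSTU22 were called in this stretch of chromosome 1, and GSTU20 and GSTU23 beside them were not.

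In the chromosome 2 cluster GSTU1, GSTU5 and GSTU7 rose. GSTU7 (AT2G29420) had 114, 91.3 and 97.5 CPM in CL37, against 7.57, 8.85 and 11.5 CPM in fae1 (log2 fold change 3.43 ± 0.27, adjusted p = 4.09e-09). GSTU1 (AT2G29490) had 38.3, 30.8 and 31.3 CPM in CL37, against 1.39, 0.161 and 0.376 CPM in fae1 (5.75 ± 0.75, adjusted p = 6.86e-06). For both genes every CL37 library lay above every fae1 library. GSTU5 (AT2G29450), the most abundant of the cluster, had 580, 314 and 318 CPM in CL37, against 109, 117 and 169 CPM in fae1 (1.62 ± 0.33, adjusted p = 0.00141), and library A of CL37 was the highest. GSTU4 (0.76 ± 0.37) and GSTU6 (0.66 ± 0.43) were not called. GSTU2 and GSTU3, below the filter, had 0.300 to 1.04 and 1.03 to 1.35 CPM in CL37, against 0 to 0.0752 and 0 to 0.369 CPM in fae1. Without the filter both were called (adjusted p = 0.00536 and 0.0385, edgeR). These calls rest on few counts: 29 in CL37 and 1 in fae1 for GSTU2, and 40 and 6 for GSTU3, each summed over the group.

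**Figure D2:**
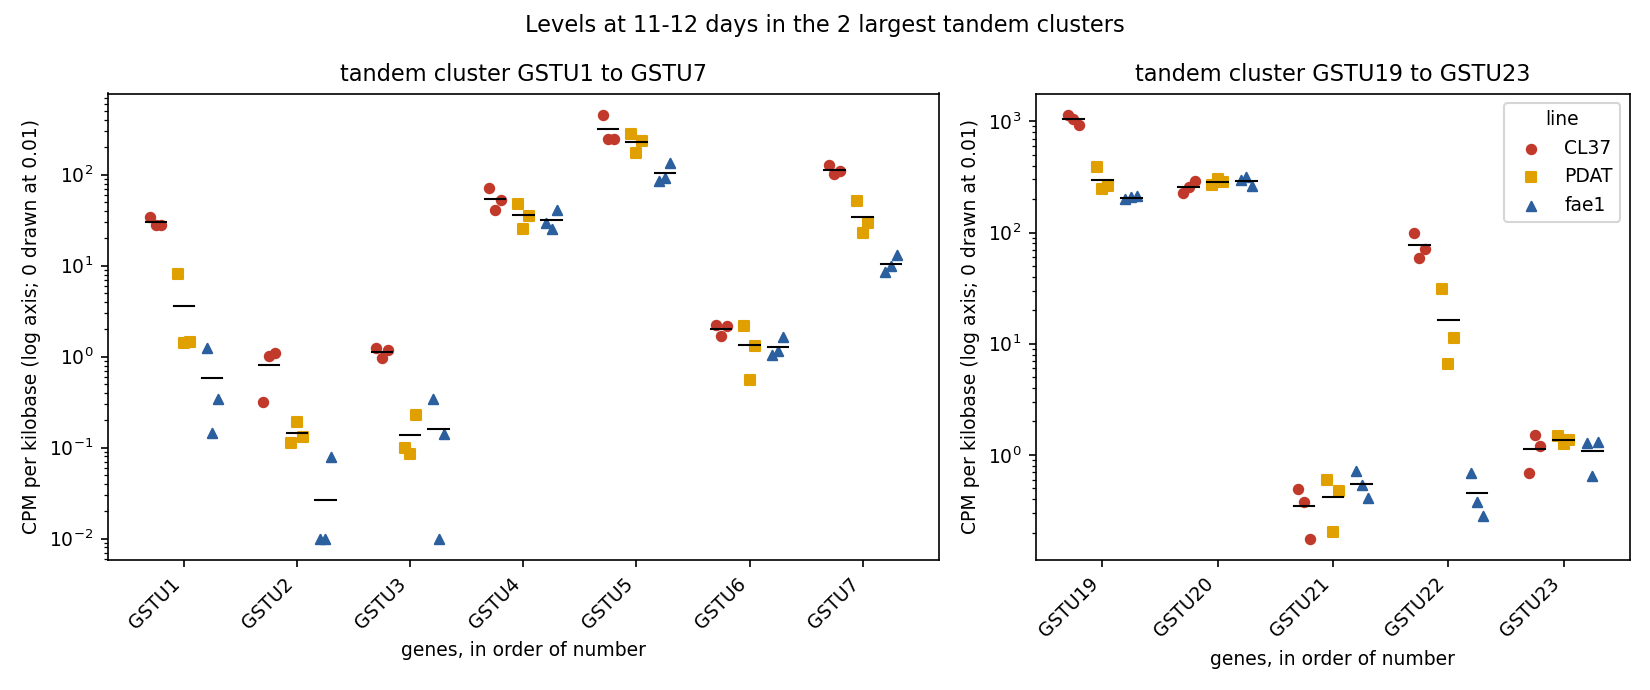
Level in CPM per kilobase of exon (log axis) at 11-12 days of the genes of the 2 largest tandem clusters, with 1 point per library, a bar at the mean of 3, and libraries at 0 drawn at 0.01. GSTU1, GSTU7, GSTU19 and GSTU22 in CL37 stand above PDAT and fae1, while GSTU20 overlaps in all 3 lines.

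Among the remaining tau genes, GSTU24 and GSTU25 rose and the third gene of their cluster, GSTU26, was not called (-0.11 ± 0.36). GSTU24 (AT1G17170) had 197, 175 and 209 CPM in CL37, against 49.4, 36.2 and 45.1 CPM in fae1 (2.15 ± 0.54, adjusted p = 0.00739). GSTU25 (AT1G17180) had 13.5, 24.5 and 28.0 CPM in CL37, against 0.185, 0 and 0.150 CPM in fae1, where it rests on 4 counts in all. No CL37 library of either gene overlapped fae1. GSTU9 (AT5G62480) rose by a log2 fold change of 3.27 ± 0.37 (adjusted p = 6.42e-07), with 34.3, 15.4 and 18.0 CPM in CL37 and 2.12, 1.61 and 3.16 CPM in fae1. GSTU18 was higher by 1.18 ± 0.22, with 11.7, 6.31 and 8.02 CPM in CL37 and 3.60, 3.78 and 3.83 CPM in fae1. Within CL37 it did not rise with age, as given below. GSTU8, on 4 fae1 counts in all, rose by 4.36 ± 0.93. GSTU11 had 139 counts in the 3 CL37 libraries (13, 51 and 75) and 1 in those of fae1. The ratio of CPM was 150.8, with an exact 95% counting interval of 26.6 to 6000.0. This interval covers counting error only, not the spread between libraries. Since GSTU11 passed the filter only through these CL37 libraries, a difference was built into its selection, and the ratio is a description only.

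Of the phi genes, GSTF8 (AT2G47730), a widely used marker of oxidative stress responses, moved most clearly. It had 184, 222 and 149 CPM in CL37, against 6.28, 6.76 and 6.47 CPM in fae1 (log2 fold change 4.83 ± 0.31, adjusted p = 3.89e-10), so the fae1 libraries are tightly grouped and far below. GSTF13 (AT3G62760) had 14.4, 6.38 and 6.18 CPM in CL37, against 1.39, 2.57 and 2.26 CPM in fae1 (2.07 ± 0.32, adjusted p = 6.36e-05). GSTF6 (AT1G02930) had 2.55, 6.45 and 5.94 CPM in CL37, against 0.924, 0.724 and 0.752 CPM in fae1 (2.66 ± 0.61, adjusted p = 0.00362). Library A of CL37 was the lowest for GSTF6, GSTF7 and GSTF2 and the highest for GSTF13. GSTF2, a phi enzyme known to bind indoles, rose by 3.18 ± 0.58 and GSTF7 by 4.31 ± 0.82. GSTF7, like GSTU11, was selected by its filter through CL37 at this stage. GSTF2, GSTF6 and GSTF7 each belong to a near-identical pair, so the values of all of them are uncertain. GSTF9 was the other way without being called: 33.2, 43.9 and 42.3 CPM in CL37, against 78.1, 51.6 and 67.2 CPM in fae1 (-0.72 ± 0.40, adjusted p = 0.232). Its neighbour GSTF10 had 18.3, 13.0 and 16.4 CPM in CL37, against 10.5, 11.9 and 11.1 CPM in fae1, and was not called.

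**Figure D3:**
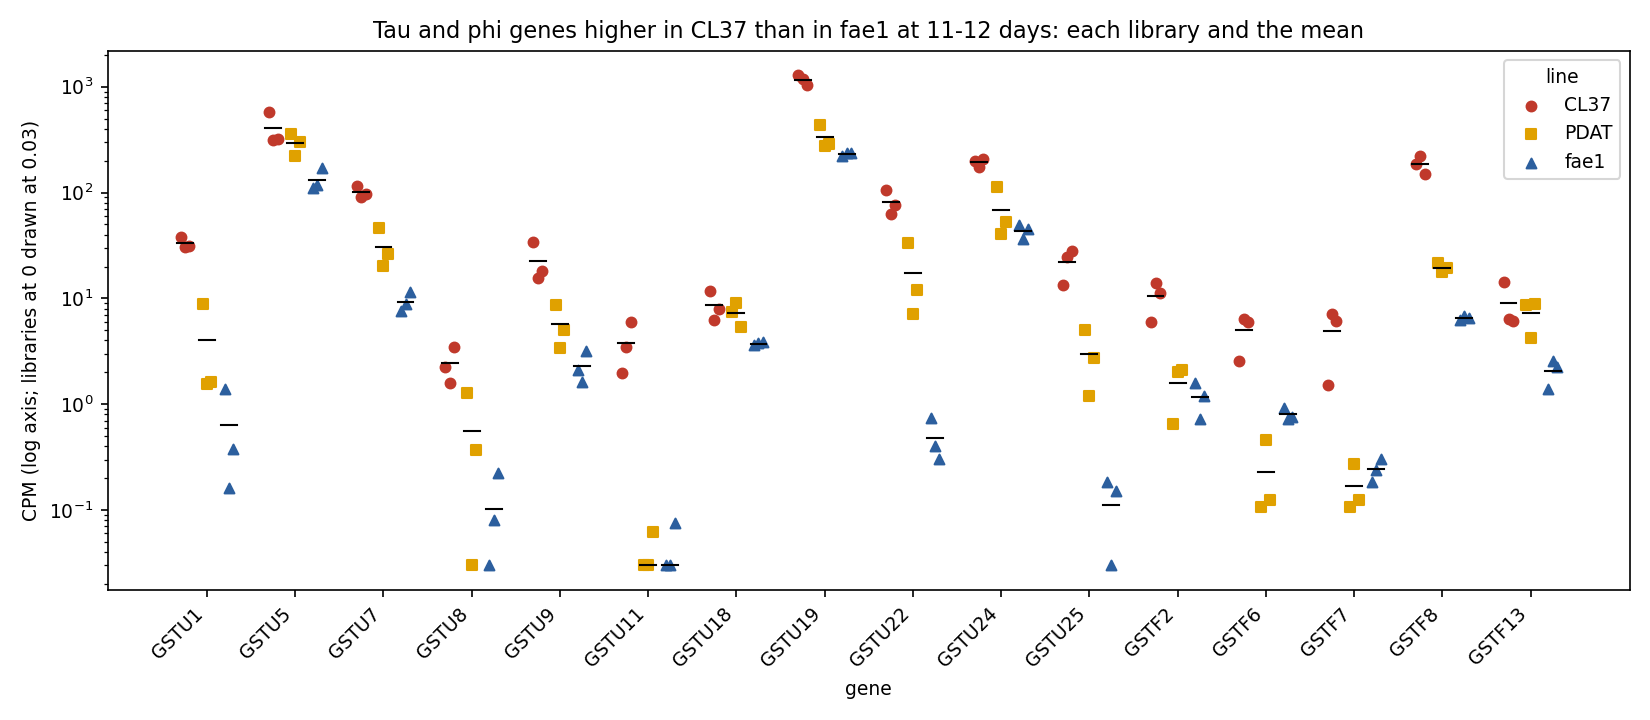
CPM (log axis) at 11-12 days of the 16 members called higher in CL37 than in fae1, with 1 point per library, a bar at the mean of 3, and libraries at 0 drawn at 0.03. CL37 stands highest in each gene by its mean, and PDAT lies between CL37 and fae1 for most, while GSTF6 and GSTF7 in PDAT lie below fae1 by their means and GSTU11 is near 0 in both.

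The calls in this contrast kept their direction in every alternative run, and GSTU24 and GSTF6 lost theirs in one, with library C of both CL37 and fae1 left out (adjusted p = 0.0568 and 0.0503). The embryo and seed markers given above stood lower in CL37 than in fae1 at this stage, with overlapping ranges, and their part in the result was not tested. Over the mean of the 3 stages 10 members rose and none fell, where 7.08% of all genes were called, 5.61% as higher and 1.47% as lower. Of the 16 that rose at 11-12 days, 9 (56.2%) have TGACG in the upstream window, as do 4 of the 17 tested members without a call (23.5%). Those 4 are GSTU6, GSTU27, GSTF3 and GSTF10. GSTU11, with the motif, and GSTF7, without it, are among the 16 but were selected by their filter. The windows of GSTU5, GSTU24 and GSTF8, like that of GSTU7, hold part of another annotated gene. Whether the shares differ was not tested. GSTU8, GSTU18, GSTU19, GSTF2, GSTF6, GSTF7 and GSTF13 rose and have none.

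The second comparison set PDAT against CL37, lines that differ in the acyltransferase transgene. No member was called at 7-8 days (0.0106% of all genes called, 4 members with an unadjusted p below 0.05, DESeq2 0) or at 9-10 days (0.0212%, 8 members, DESeq2 2 as lower). At 11-12 days 11 of the 33 fell and none rose, where 2.65% of all genes were called, 2.55% as lower and 0.0953% as higher. This comparison and that of CL37 against fae1 both contain the CL37 libraries, so a high or low CL37 library moves them in opposite directions. The median log2 fold change was -0.60 over the tested members and 0.02 over all tested genes. Without GSTU11 and GSTF7, 9 of 31 fell and the median was -0.47. The embryo and seed markers of PDAT lay within the CL37 range.

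GSTU19 had 431, 278 and 291 CPM in PDAT, against 1284, 1186 and 1029 CPM in CL37 (log2 fold change -1.81 ± 0.16, adjusted p = 8.17e-07). GSTF8 had 21.4, 17.6 and 19.6 CPM in PDAT, against 184, 222 and 149 CPM in CL37 (-3.24 ± 0.29, adjusted p = 8.17e-07). For both genes all PDAT libraries lay below all CL37 libraries. GSTU7 had 46.0, 20.2 and 26.1 CPM in PDAT, against 114, 91.3 and 97.5 CPM in CL37 (-1.72 ± 0.24, adjusted p = 0.000127). GSTU22 had 33.1, 7.05 and 12.1 CPM in PDAT, against 106, 63.3 and 75.5 CPM in CL37 (-2.24 ± 0.46, adjusted p = 0.00632). GSTU25 fell by 2.91 on the log2 scale (SE 0.50) and GSTU1 by 3.11 (SE 0.61). Library A of PDAT was the highest of its group for each of GSTU1, GSTU7, GSTU9, GSTU19, GSTU22 and GSTU25. The GSTU22 call is lost without library C of PDAT (adjusted p = 0.064) and the GSTU1 call in DESeq2 (0.0547).

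GSTF6 had 0.107, 0.458 and 0.123 CPM in PDAT, against 2.55, 6.45 and 5.94 CPM in CL37 (-4.46 ± 0.74, adjusted p = 0.000722), and rests on 1, 5 and 2 counts in PDAT. GSTF2 (-2.69 ± 0.56) and GSTF7 (-4.85 ± 0.87) also fell, and GSTU9 fell by 1.99 on the log2 scale (SE 0.34). GSTU11 had 1 count in the 3 PDAT libraries, against 139 in CL37. For GSTU11 and GSTF7 a difference from CL37 at this stage was built into their selection by the filter. Called in CL37 against fae1 but not here were GSTU5 (-0.47 ± 0.33), GSTU8 (-2.21 ± 0.75), GSTU18 (-0.25 ± 0.21), GSTU24 (-1.49 ± 0.52) and GSTF13 (-0.28 ± 0.30). GSTU24 shows the spread: 114, 40.9 and 52.7 CPM in PDAT, against 197, 175 and 209 CPM in CL37, with no overlap but an adjusted p of 0.196. Over the mean of stages 5 members fell and none rose, where 0.815% of all genes were called, 0.751% as lower and 0.0635% as higher.

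The third comparison set PDAT against fae1. At 11-12 days 10 members rose and none fell, where 6.61% of all genes were called, 4.93% as higher and 1.68% as lower. This comparison shares the fae1 libraries with that of CL37 against fae1. The embryo and seed markers summed to 103462 to 113843 CPM in PDAT, against 158044 to 248399 CPM in fae1, with no overlap, and their part in the result was not tested. The median log2 fold change was 0.34 over the tested members and 0.03 over all tested genes. GSTU22 had 33.1, 7.05 and 12.1 CPM in PDAT, against 0.739, 0.402 and 0.301 CPM in fae1 (5.17 ± 0.67, adjusted p = 2.9e-05). GSTF8 had 21.4, 17.6 and 19.6 CPM in PDAT, against 6.28, 6.76 and 6.47 CPM in fae1 (1.58 ± 0.29, adjusted p = 0.00136). GSTU7 rose by 1.71 ± 0.26 and GSTU25 by 4.62 ± 0.84. In each of these 4 genes every PDAT library lay above every fae1 library.

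GSTF13 had 8.58, 4.21 and 8.89 CPM in PDAT, against 1.39, 2.57 and 2.26 CPM in fae1 (1.79 ± 0.32, adjusted p = 0.00111). GSTU1, GSTU5, GSTU9, GSTU18 and GSTU19 were called with adjusted p between 0.0121 and 0.0475, and each of these calls is lost on leaving out single libraries. GSTU19 is one of them: 431, 278 and 291 CPM in PDAT, against 222, 234 and 237 CPM in fae1, gave 0.53 ± 0.16, and 0.30 without library A of PDAT. GSTU1 gave 2.63 ± 0.78, and 1.36 without the same library. With library C of both CL37 and fae1 left out, 5 members were called in place of 10. GSTF2, GSTF6 and GSTF7 were not called, at 0.49 ± 0.62, -1.79 ± 0.86 and -0.54 ± 1.15.

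At 7-8 days GSTU18 rose and GSTU19 and GSTU24 fell in PDAT against fae1, where 8.64% of all genes were called, 4.77% as higher and 3.87% as lower. At 9-10 days no member was called (0.0900% of all genes, 9 members with an unadjusted p below 0.05, DESeq2 2 as lower). The GSTU24 difference rests on library A of fae1: it had 0.694, 2.08 and 1.66 CPM in PDAT, against 19.2, 1.76 and 2.47 CPM in fae1. The log2 fold change of -2.40 ± 0.67 became -0.53 without that library. GSTU19 was lost in 11 of 14 alternatives (-0.51 ± 0.16), and no call at this stage held with the percent of non-unique reads as a covariate. Over the mean of stages 3 members rose and none fell, where 5.86% of all genes were called, 3.68% as higher and 2.17% as lower.

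Seed age was compared within each line. Between 7-8 and 11-12 days 20 rose and 9 fell in CL37, where 58.1% of all genes were called, 29.5% as higher and 28.6% as lower. Without GSTU11 and GSTF7, which their filter selected, 18 of 31 rose in CL37. In PDAT 13 rose and 12 fell, where 53.9% of all genes were called, 27.2% as higher and 26.7% as lower. In fae1 7 rose and 11 fell, where 50.5% of all genes were called, 24.0% as higher and 26.5% as lower. The fae1 share, 54.5% of the tested members, is near that of all genes. With library A of fae1 of 7-8 and 9-10 days left out, 7 rose and 12 fell in fae1. The tested members' median log2 change was 1.76 in CL37, 0.39 in PDAT and 0.06 in fae1, where that of all genes was at most 0.01. Without GSTU11 and GSTF7 it was 1.53 in CL37, 0.39 in PDAT and -0.17 in fae1, so the fae1 median turns with these 2 genes. By class, 14 tau and 6 phi genes rose in CL37, 11 and 2 in PDAT, and 6 and 1 in fae1.

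**Figure D4:**
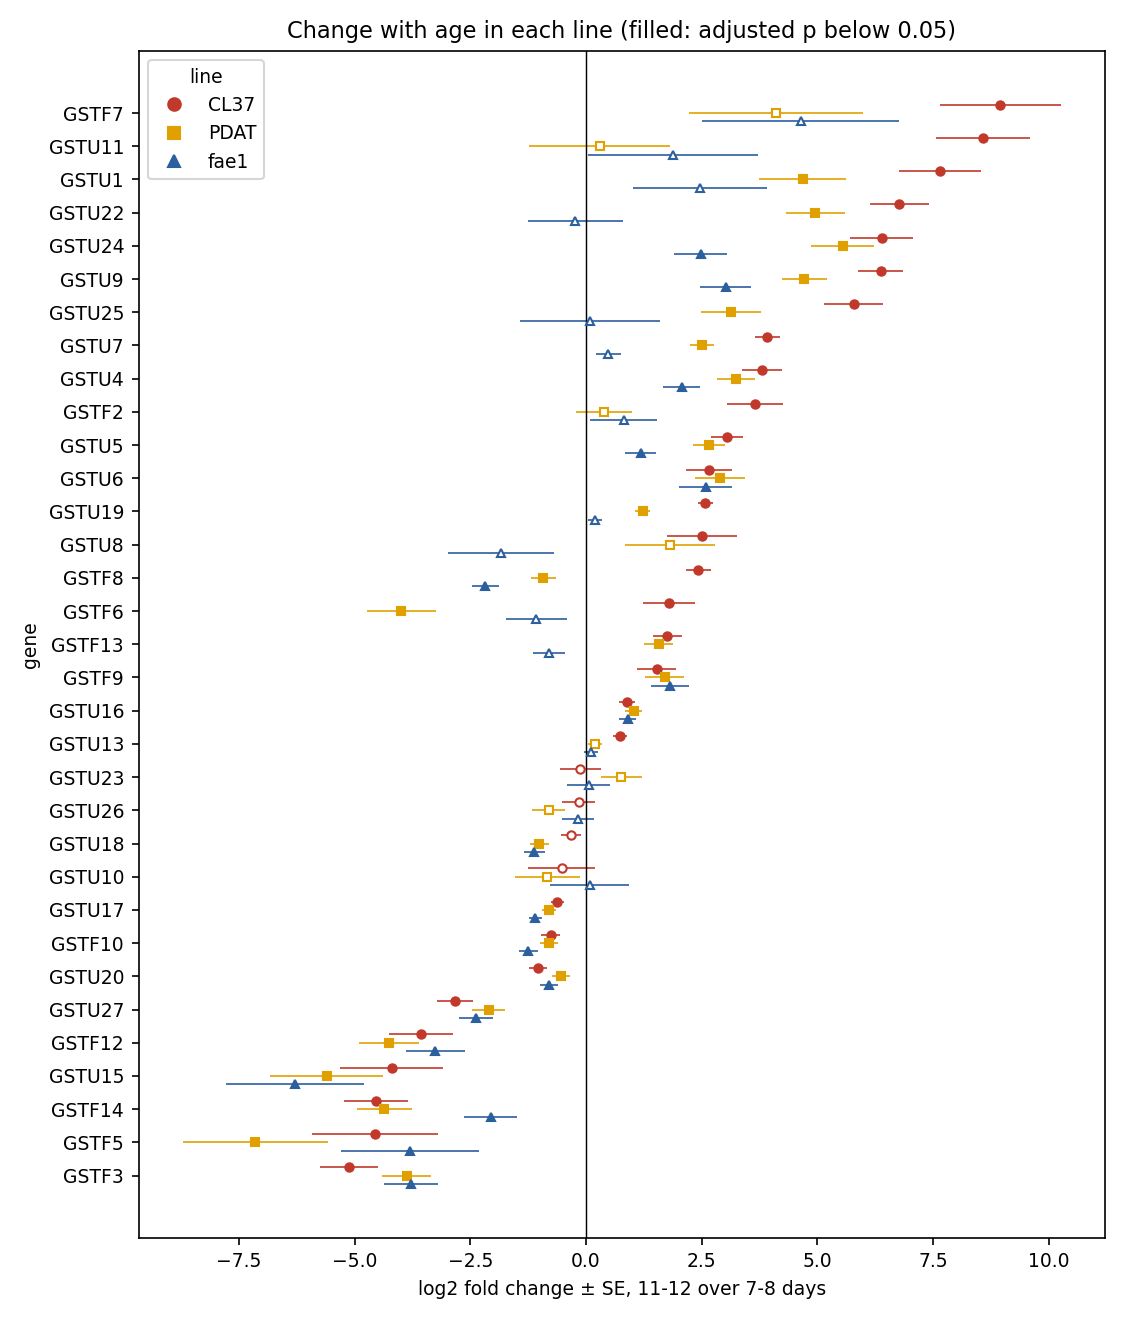
Log2 fold change between 7-8 and 11-12 days (horizontal axis, with SE) of the 33 tested members in CL37, PDAT and fae1, ordered by the CL37 value, with filled points where the adjusted p is below 0.05. GSTF8 moves in opposite directions in CL37 and the other lines. The values of GSTF7 and GSTU11, which had 0 or 1 counts per group at 7-8 days, depend on the prior count of the fit.

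The members that fell in all 3 lines are GSTU15, GSTU17, GSTU20, GSTU27, GSTF3, GSTF5, GSTF10, GSTF12 and GSTF14, which is 9 of 33, where 16.6% of all genes did so. GSTU20 fell by 1.03 on the log2 scale in CL37, by 0.55 in PDAT and by 0.80 in fae1. Its mean was highest at 9-10 days in each line, with 681 CPM in CL37, 698 CPM in PDAT and 709 CPM in fae1. The means at 7-8 days were 603, 476 and 583 CPM in the same order, and the libraries of these stages overlapped in CL37 and fae1. GSTF12 (AT5G17220), the flavonoid carrier, fell by 3.57, 4.26 and 3.26 (SE 0.70, 0.64 and 0.64) in CL37, PDAT and fae1. Its partner genes of anthocyanin and proanthocyanidin synthesis, 7 genes, summed to 29.2 to 36.2 CPM at 11-12 days in CL37, against 94.2 to 128 CPM at 7-8 days. In PDAT they summed to 35.6 to 45.0 CPM at 11-12 days, against 147 to 240 CPM at 7-8 days, and in fae1 to 33.1 to 53.7 CPM, against 73.8 to 151 CPM. The 6 seed coat markers stood lower too, at 63.7 to 69.1 CPM in CL37 at 11-12 days, against 275 to 505 CPM at 7-8 days. Their sums were 63.6 to 109 against 427 to 687 CPM in PDAT and 58.7 to 79.5 against 135 to 396 CPM in fae1 for the same stages. At 11-12 days TT12 and TT16 of that list were at 0 in CL37, and 3 genes stand in both lists (BAN, TT2 and TT12). The part of seed coat RNA in the GSTF12 change was not tested.

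The members that rose in all 3 lines are GSTU4, GSTU5, GSTU6, GSTU9, GSTU16, GSTU24 and GSTF9, which is 7 of 33, where 15% of all genes did so. GSTU16 rose by 0.89 ± 0.18 in CL37, 1.03 ± 0.18 in PDAT and 0.90 ± 0.18 in fae1, with overlapping errors. GSTF9 rose by 1.53 ± 0.41, 1.70 ± 0.41 and 1.82 ± 0.41 in the same lines. For GSTU24 and GSTF9 the fae1 change is set by library A of 7-8 days: without it the values are 4.36 and 2.90, against 2.48 and 1.82 with it.

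Another 6 members rose in CL37 and PDAT and were not called in fae1: GSTU1, GSTU7, GSTU19, GSTU22, GSTU25 and GSTF13. Of all genes 7.38% had this pattern of calls. GSTU22 rose by 6.77 ± 0.63 in CL37 and 4.96 ± 0.63 in PDAT, with -0.23 ± 1.03 in fae1. GSTU7 rose by 3.92 ± 0.27 in CL37 and 2.50 ± 0.26 in PDAT, with 0.48 ± 0.27 in fae1. In CL37 GSTU8, GSTU11, GSTU13, GSTF2 and GSTF7 rose as well and were called in neither other line, as were 3.8% of all genes. GSTU11 and GSTF7 passed the filter only through CL37 at 11-12 days, so a rise in CL37 was built into their selection. GSTF7 had 0 counts in all 9 libraries of 7-8 days. GSTF8 rose by 2.43 ± 0.28 in CL37, while it fell by 0.92 in PDAT and by 2.18 in fae1. GSTF6 rose in CL37 (1.79 ± 0.57) and fell in PDAT (-3.99 ± 0.74). GSTU18 fell in PDAT and fae1 and was not called in CL37. Its mean went from 10.7 CPM at 7-8 days to 8.68 CPM at 11-12 days in CL37, and from 8.11 to 3.74 CPM in fae1. GSTU10, GSTU23 and GSTU26 were called with age in no line.

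**Figure D5:**
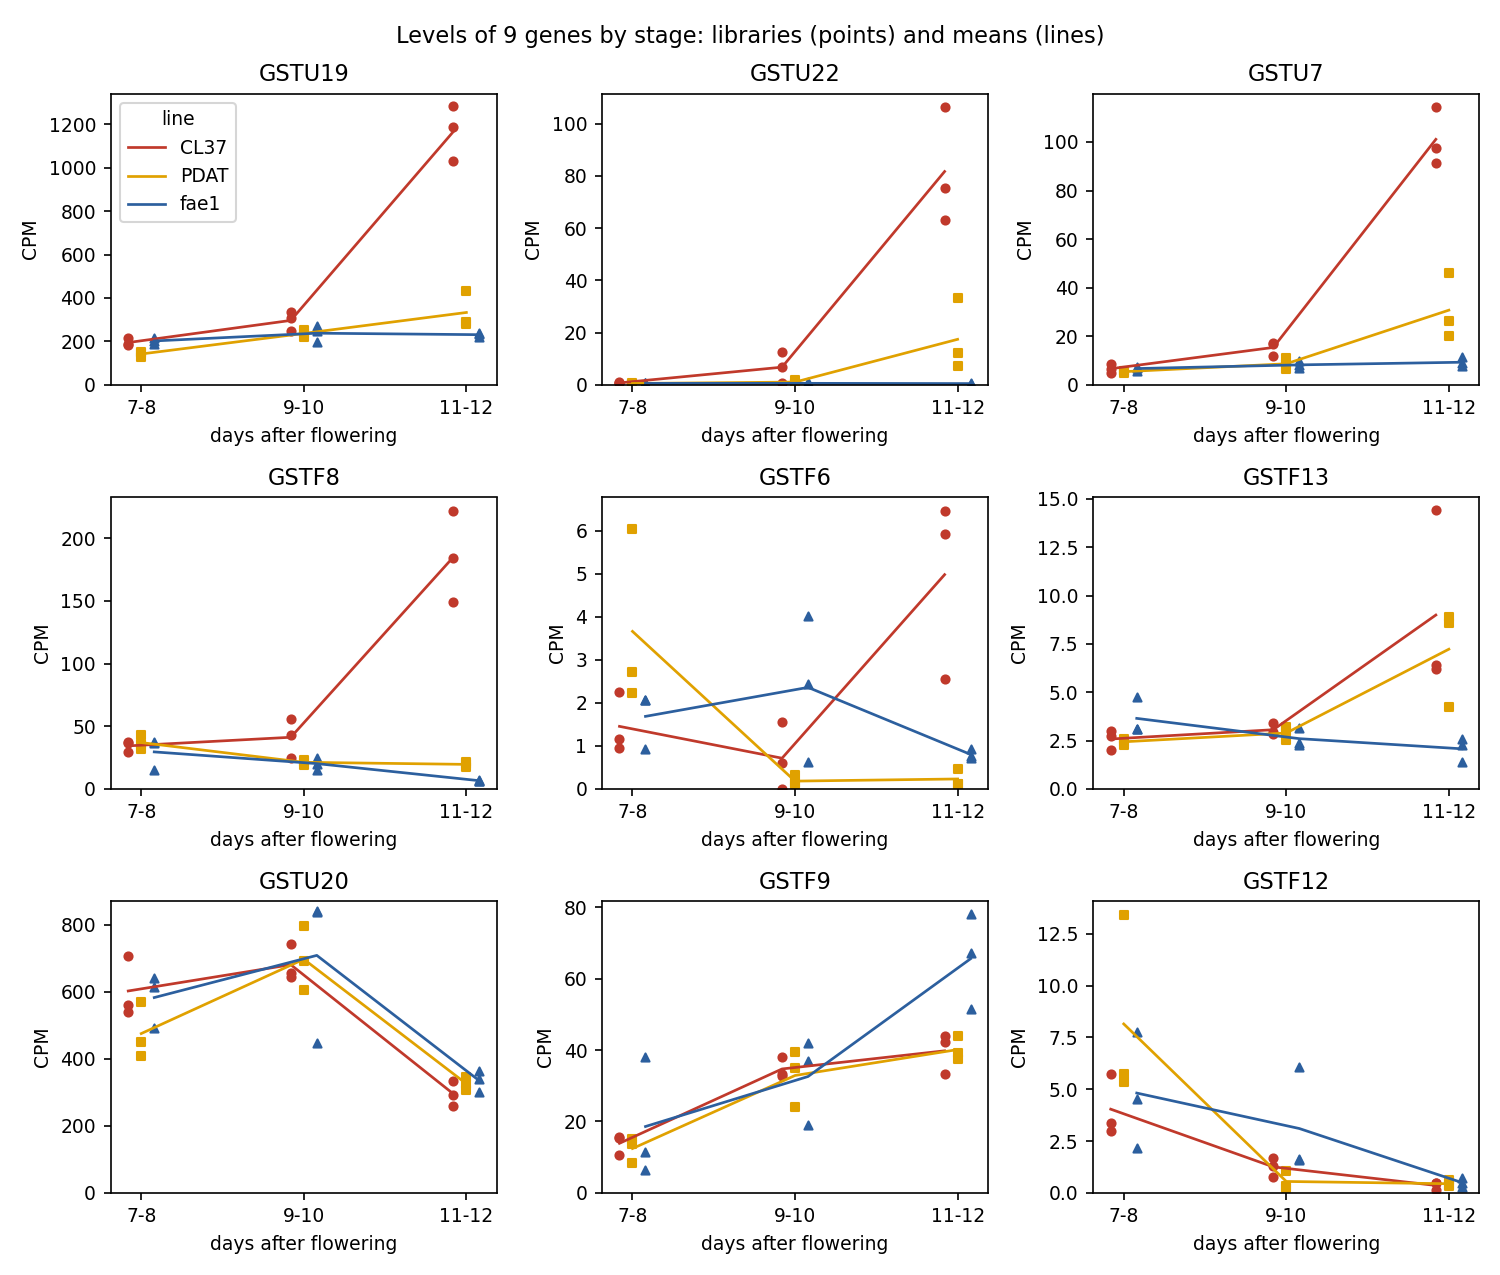
CPM (vertical axis, from 0) of 9 members at 7-8, 9-10 and 11-12 days after flowering, with points for libraries and lines through the means of 3, in CL37, PDAT and fae1. GSTU19, GSTU22, GSTU7 and GSTF8 separate the lines at 11-12 days, with CL37 highest. GSTU20 and GSTF12 are lower at 11-12 than at 7-8 days in all lines, and GSTU20 has its highest mean at 9-10 days in each.

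Whether a line difference itself changed with age was tested as an interaction between the first and last stage. For CL37 against fae1 9 members gained and none lost (6.56% of all genes called, 5.51% as gaining and 1.04% as losing): GSTU5, GSTU7, GSTU9, GSTU19, GSTU22, GSTU24, GSTF6, GSTF8 and GSTF13. The GSTF8 difference grew by 4.61 ± 0.40 on the log2 scale (adjusted p = 4.28e-07) and the GSTU19 difference by 2.39 ± 0.23 (adjusted p = 1.67e-06). For PDAT against CL37 GSTU19, GSTF6 and GSTF8 fell (0.704% of all genes called, 0.677% as losing and 0.0265% as gaining). For PDAT against fae1 GSTU7, GSTU19, GSTU22, GSTU24 and GSTF13 gained (7.64% of all genes called, 4.73% as gaining and 2.91% as losing). Both GSTU24 calls were lost without library A of fae1 at 7-8 days. The GSTF6 call in CL37 against fae1 (adjusted p = 0.0486, edgeR) was lost in most alternatives, as given below.

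Genes around the family were compared at 11-12 days, where, as given above, 10.5% of all genes were called higher in CL37 than in fae1 and 2.65% were called in PDAT against CL37. Of 11 tested genes of other glutathione transferase classes 3 rose in CL37 against fae1: the membrane-bound MGST (0.98 ± 0.18, adjusted p = 0.000517), the zeta gene GSTZ1 of tyrosine breakdown (0.83 ± 0.18) and the dehydroascorbate reductase DHAR2 (0.85 ± 0.28). Of 4 genes of glutathione synthesis and reduction none rose and the plastid and mitochondrial reductase GR2 fell by 0.68. Of 8 genes of conjugate transport and breakdown the vacuolar pump gene ABCC3 rose (0.90 ± 0.25). Of 7 tested regulators, TGA factors and their partner SCL14, TGA3 rose: it had 39.1, 38.6 and 37.2 CPM in CL37, against 16.0, 16.1 and 18.1 CPM in fae1 (1.19 ± 0.20, adjusted p = 0.000175). In PDAT against CL37 no gene of these 4 lists was called by edgeR (an unadjusted p below 0.05 in 2 genes of other classes, 2 regulators and 1 transport gene), which at that share of all genes says nothing of the lists. For conjugate transport and for the regulators the counts in CL37 against fae1 are near the share of all genes. In PDAT against fae1 TGA3 rose (0.81 ± 0.20), where 6.61% of all genes were called, 4.93% as higher. The other genes of the 4 lists are not described for that contrast, so this call says nothing of the lists.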

How the data were processed

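The library kit was TruSeq v2 for mRNA, from Illumina, per the labels' protocols. The authors deposited whole-number counts of reads per gene for each of the 27 libraries. Named in the submitters' processing notes, without roles or settings, are TAIR10 as the build and Cufflinks 2.0.1, HTSeq 0.5.4p3, TopHat2 2.0.3, Trimmomatic 0.22 and bcl2fastq 1.8.2. The values of a pooled FPKM table by the authors were not used here. Each file ends in 5 summary lines (4.68% to 20.49% of its total), which were left out.

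Line and stage, from the labels, gave 9 groups. Counts were fitted in edgeR 4.0.16 (R 4.3.3, limma 3.58.1) with TMM factors, its expression filter (minimum count 10, by group), and a robust quasi-likelihood model over all samples, with a common coefficient of biological variation of 0.209. Tests are 2-sided and adjusted over the 18897 genes tested. The SE given with a log2 fold change is its size divided by the square root of the F statistic of its test. It was not taken from the fit directly and is rough for members with few counts. In counts simulated for CL37 against fae1 at 11-12 days on 18897 genes, 63 of 100 genes changed 2-fold and 94 of 100 changed 4-fold were called, with 6 unchanged genes. The changed genes were drawn from the better counted genes only, and each gene otherwise had the same mean in all groups. These shares therefore do not apply to members with few counts. Replicates of each group varied beyond counting noise, with a chi-square of 2.88 to 252 for each degree of freedom. Nothing in the labels says whether replicates were separate plantings, so p-values measure the spread between these samples.

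CPM use TMM-scaled library sizes, and levels per kilobase use exon length in RefSeq TAIR10.1, which also gave positions and upstream windows and whose gene models may differ from those counted. Names of 60 of 62 comparison genes matched there by symbol, and MGST and TCHQD were taken by locus. The genes chosen for description are the called members at 11-12 days and with age (up to 8 each way by size) and the most abundant 4 per line. The GSTU1 to GSTU7 and GSTU19 to GSTU23 clusters, GSTF2, GSTF6 to GSTF10 and GSTF12 were added. Some of these genes are given in brief, without all their values. The members and lists were chosen with earlier results of these data known. Alternatives were RLE and upper-quartile factors, no filter, DESeq2 1.42.0, replicate letter as a block, the percent of non-unique reads as a covariate, fits to the compared groups only, and leaving out libraries. Python 3.11.15 and matplotlib 3.10.9 drew the figures.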

Additional observations from a re-analysis of the deposited data

Results flagged for a closer look

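Each of the following line differences changed between 7-8 and 11-12 days by the interaction test in edgeR, on the log2 scale. For CL37 against fae1 the difference grew for GSTU5 by 1.87, GSTU7 by 3.44, GSTU9 by 3.35, GSTU19 by 2.39, GSTU22 by 7.00, GSTU24 by 3.92, GSTF6 by 2.86, GSTF8 by 4.61 and GSTF13 by 2.56. For PDAT against CL37 it changed for GSTU19 by -1.35, GSTF6 by -5.78 and GSTF8 by -3.35. For PDAT against fae1 it grew for GSTU7 by 2.03, GSTU19 by 1.04, GSTU22 by 5.19, GSTU24 by 3.07 and GSTF13 by 2.37. The GSTU24 values rest on library A of fae1 at 7-8 days: without it the change was 2.04 for CL37 against fae1 and 1.19 for PDAT against fae1, and neither was called. GSTF6 in CL37 against fae1 was called at an adjusted p of 0.0486 and kept its call in 8 of 21 alternatives. The pairs of lines share libraries, so these values are not independent of each other.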

How the results depend on the processing

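No called result reversed its direction. Of 149 called values of members, 1126 of 1207 recomputed values kept their call under the other settings and 1098 of 1212 on leaving out single libraries. The replicate letters were not taken to pair the samples, since 34 of 108 same-letter pairs correlated above 0.1 (median 0.033, other letters -0.026) and all pairs did so in 2 of 36 group pairs. As a hint from the data, 18 of 27 libraries correlated best with their own letter. With the replicate block 16 members were called in CL37 against fae1 and 11 in PDAT against CL37 at 11-12 days, as without it, and no count moved by over 1.5 times.

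Counts of called members that moved by more than 1.5 times were as follows, each with the cause not tested. For CL37 against fae1 at 9-10 days, 2 became 0 when only the compared groups were fitted and 4 in DESeq2, and 0 to 3 without single libraries. For PDAT against CL37 at 9-10 days, 0 became 2 with the non-unique share as covariate and 2 in DESeq2, and 0 to 2 without single libraries. Over the mean of stages 5 became 8 in DESeq2, and 3 to 7 without single libraries. For PDAT against fae1 at 7-8 days, 3 became 1 with no filter, 0 with the covariate and 0 with only the compared groups, and 0 to 2 without single libraries. At 9-10 days 0 became 2 in DESeq2, and 0 to 1 without single libraries. At 11-12 days 10 became 5 with library C of both CL37 and fae1 left out, and 6 to 9 without single libraries. Over the mean of stages 3 became 6 in DESeq2, and 3 to 6 without single libraries. With age in PDAT, 25 became 16 with the covariate. For the change of a difference with age, CL37 against fae1 moved from 9 to 15 in DESeq2, and PDAT against CL37 from 3 to 5. PDAT against fae1 moved from 5 to 3 with only the compared groups, 8 without the A libraries of fae1, 3 without the C libraries, 8 in DESeq2, and 4 to 9 without single libraries. The C and A libraries were left out because earlier results of these data had singled them out. With upper-quartile scaling the median log2 change of all genes in CL37 development was -0.143, against 0.008 with TMM. Depth limits the 10 tested members with fewer than 10 counts in over 50% of libraries: GSTU1, GSTU8, GSTU9, GSTU10, GSTU11, GSTU15, GSTU22, GSTU25, GSTF5 and GSTF7.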
